A study of Mus musculus with 10 samples.

Results

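The lysosome and autophagy genes are 36 mouse genes, all of which were on the array by name, with 86 probe sets among the 34945 that the platform annotation gives exactly 1 gene symbol. They were chosen by symbol, with earlier results of these data known. For counts and medians each gene was represented by its probe set of highest mean over all 10 arrays, and single genes were also read on every probe set. A mean under 4 log2 was taken as near background: Gla, at 3.58 ± 0.36 log2 in APOE4 livers and 3.41 ± 0.24 log2 in APOE3 livers, and Tfeb, at 3.07 ± 0.12 log2 in APOE4 livers and 3.12 ± 0.22 log2 in APOE3 livers (SD, n = 5 each), lay below it, and the next member above it was Glb1 at 5.80 log2 over all arrays. The other 34 members were tested.

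Liver RNA came from 5 female mice homozygous for human APOE4 (B6.129P2-Apoetm3(APOE*4)Mae N8) and 5 homozygous for human APOE3 (B6.129P2-Apoetm2(APOE*3)Mae N8), with 1 extract and 1 array per animal. In both genotypes the human gene stands in place of the endogenous Apoe gene, under the control of the mouse Apoe promoter, on a C57BL/6 background. No group here keeps mouse Apoe. All mice were 3 months old and ate a butter-fat diet (41% of energy from milk fat, cholesterol at 2 g/kg) for 6 weeks by one label and 2 months by another. The values are log2 expression estimates made with GCRMA, a method that corrects array background by the base composition of the probes. The comparison asks whether these transcripts differ between APOE4 and APOE3 livers.

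Lysosomes are acidic organelles in which proteases, glycosidases, lipases and nucleases break down material that arrives by endocytosis or by autophagy, the process that encloses cytoplasm in a double membrane and delivers it to them. In the liver they receive the lipoprotein remnants that hepatocytes take up through apolipoprotein E, and their acid lipase frees cholesterol from the esters those particles carry. The transcription factor TFEB and its relatives are known to bind an E-box with the core CACGTG, which recurs in promoters of many lysosomal genes.

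That core could be looked for in the promoters of 31 members for which RefSeq (GRCm38.p6) gave a window of 250 bases before to 50 bases after the start site; Ctsb, Ctsh, Asah1, Atp6v1h and Becn1 are named only. The 6 letters CACGTG, which read the same on both strands, were found in 11 of the 31 (35.5%), against 8.09% of the 27025 genes with a window. The longer palindrome TCACGTGA, which contains them, was found in 5 members (16.1%), Ctsa, Ctsd, Gla, Mcoln1 and Atp6v0d1, against 1.12% of all genes. CACGTG holds a CpG, and the windows differed in composition: the median G+C content was 60.7% for the members and 52.7% for all windows. A match describes the letters and not a bound site. Stretches from these 11 genes follow because they show which members hold the core and how; the other 20 windows, that of Dnase2a included, lack it. For each gene it is the stretch nearest the start site, written 5′ to 3′ on the gene's strand with CACGTG in capitals and 12 bases on either side, and neighbouring copies share a stretch.
Lamp1 (chr8:13159088-13159163, plus strand): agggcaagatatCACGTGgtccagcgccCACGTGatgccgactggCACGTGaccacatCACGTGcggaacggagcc
Mcoln1 (chr8:3500436-3500491, plus strand): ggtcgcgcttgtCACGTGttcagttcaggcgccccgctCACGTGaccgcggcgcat
Ctsa (chr2:164833749-164833795, plus strand): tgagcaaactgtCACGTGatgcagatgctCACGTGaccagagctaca
Ctsd (chr7:142387908-142387937, minus strand): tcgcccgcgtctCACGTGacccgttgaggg
Ctsl (chr13:64370739-64370768, minus strand): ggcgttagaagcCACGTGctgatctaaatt
Gla (chrX:134601182-134601244, minus strand): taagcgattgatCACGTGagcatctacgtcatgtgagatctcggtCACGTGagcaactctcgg
Glb1 (chr9:114401018-114401047, plus strand): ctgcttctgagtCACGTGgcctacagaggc
Naglu (chr11:101070009-101070038, plus strand): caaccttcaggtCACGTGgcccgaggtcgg
Atp6v0d1 (chr8:105566050-105566079, minus strand): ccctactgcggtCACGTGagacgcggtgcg
Atg5 (chr10:44268313-44268342, plus strand): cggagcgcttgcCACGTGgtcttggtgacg
Atg7 (chr6:114670952-114670981, plus strand): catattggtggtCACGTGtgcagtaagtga

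Lamp1, which encodes an abundant protein of the lysosomal membrane, held 4 copies in the 76 bases printed, the last beginning at position -15 from the start site. Ctsa, Ctsd, Gla and Mcoln1 held 2 copies each, of which the outer one of Ctsd, at position -245, is not printed. In Ctsa the copies lie on either side of the start site.

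None of the 34 tested members passed limma at an adjusted p of 0.05, where 12 of all 14732 tested probe sets did (0.0815%; 5 higher and 7 lower in APOE4). In bulk liver, fewer cells of a type and less RNA per cell cannot be told apart. Dnase2a and Smpd1 were the 2 members (5.88%) with an unadjusted p under 0.05, against 7.16% of the 8535 genes tested with 1 probe set each. In 1 member, Dnase2a, the 5 APOE4 values did not overlap the 5 APOE3 values (2.94%), against 1.75% of those genes. The members divided into 17 higher and 17 lower in APOE4, with a median difference of 0.00097 log2, while 59.6% of all tested genes were higher and their median was 0.039. With arrays centred on their medians the members divided into 11 higher and 23 lower and all genes into 45.4% higher, so the sign of a small difference depends on the scaling. The plot of differences by gene shows 18 members within 0.1 log2 of 0. One animal, APOE3 replicate 4, stood apart in macrophage markers, as described further on, and without it the median difference over the members was 0.013 log2.

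**Figure D1:**
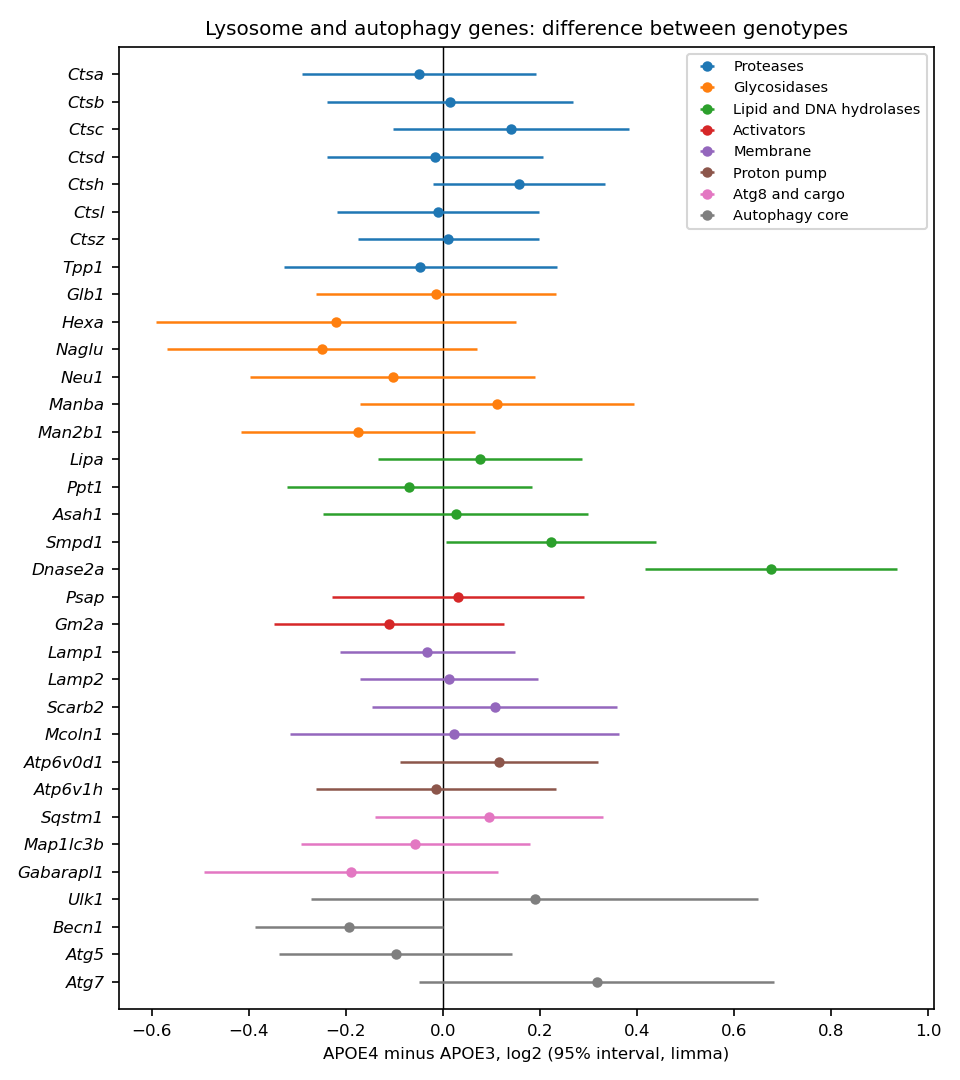
Difference in log2 expression (APOE4 minus APOE3) of the 34 tested members, 5 animals per genotype, with limma's 95% intervals, coloured by role. Dnase2a stands at 0.68 log2, and 29 of the 34 intervals lie inside ±0.5 log2.

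The intervals say how large a difference the arrays leave room for. For 29 of the 34 members limma's 95% interval lay wholly inside ±0.5 log2, that is within 1.41-fold in either direction. The exceptions were Dnase2a (0.42 to 0.94), Atg7 (-0.048 to 0.68), Ulk1 (-0.27 to 0.65), Hexa (-0.59 to 0.15) and Naglu (-0.57 to 0.071). Pooled within genotypes, the SD of a member was 0.161 log2 at the median (0.0757 to 0.368), against 0.231 log2 for all tested probe sets. Members were read on their probe set of highest mean and the reference on every tested probe set, so the sets are not alike. A p that misses the threshold does not show that the genotypes are alike. The 10 measured genes with CACGTG had 3 higher and 7 lower values in APOE4 than in APOE3, with a median difference of -0.015 log2 and a range of -0.25 (Naglu) to 0.32 (Atg7). The 19 measured genes whose windows lack it had 11 higher and 8 lower, with a median of 0.013 log2 and a range of -0.22 (Hexa) to 0.68 (Dnase2a). With centred arrays Ctsz, Psap and Lamp2, which lack it, and Mcoln1, which holds it, turned from higher to lower. The counts of both groups thus depend on the scaling.

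Among the hydrolases of lipid and DNA, Dnase2a was higher in every APOE4 liver than in any APOE3 liver. It encodes the acid endonuclease that digests DNA of engulfed cells and nuclei inside lysosomes. Its values were 8.66, 8.79, 8.87, 9.23 and 8.93 log2 in APOE4 livers, against 8.28, 8.38, 8.28, 8.10 and 8.06 log2 in APOE3 livers. The highest APOE3 value was thus below the lowest APOE4 value. The difference was 0.68 log2 (SE 0.118, 95% interval 0.42 to 0.94), or 1.6-fold, and it did not pass over all probe sets (unadjusted p = 0.00013, adjusted p = 0.137 in limma). It was 0.64 log2 without APOE3 replicate 4 and 0.62 log2 with centred arrays. The gene rests on 1 probe set, whose suffix on this platform marks probes that can also match other transcripts.

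The 250 bases before the Dnase2a start site are shown because this is the member whose genotypes stood apart; the window holds 0 copies of CACGTG.
Dnase2a (GRCm38.p6, chr8:84908505-84908754, plus strand): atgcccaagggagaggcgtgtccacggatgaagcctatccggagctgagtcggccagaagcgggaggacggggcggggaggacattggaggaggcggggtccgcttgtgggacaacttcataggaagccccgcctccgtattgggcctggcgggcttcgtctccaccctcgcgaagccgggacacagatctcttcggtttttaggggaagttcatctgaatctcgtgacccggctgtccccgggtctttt
Its neighbours on chromosome 8 were read in the same way. Of the 10 tested genes on either side in RefSeq gene order, 13 were higher and 7 lower in APOE4, from -0.27 to 0.22 log2, with 0 adjusted calls and 0 unadjusted p under 0.05 (the smallest was 0.0868). The nearest tested genes on either side were Klf1, the erythroid transcription factor gene, at -0.27 log2 (SE 0.279), close to the filter at 3.93 log2 in APOE4 and 4.20 log2 in APOE3, and Rnaseh2a, which encodes the catalytic subunit of a ribonuclease H, at 0.12 log2 (SE 0.168).

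Smpd1 encodes acid sphingomyelinase, which splits sphingomyelin into ceramide and phosphocholine. Its values were 8.57, 8.67, 8.64, 8.55 and 8.92 log2 in APOE4 livers, against 8.45, 8.45, 8.62, 8.34 and 8.38 log2 in APOE3 livers. The ranges overlapped through APOE3 replicate 3, and all 5 APOE4 livers lay above the APOE3 mean. The difference was 0.22 log2 (SE 0.0981, unadjusted p = 0.0438, adjusted p = 0.610 in limma). Lipa, the lysosomal acid lipase that hydrolyses cholesteryl esters and triglycerides, averaged 10.72 ± 0.129 log2 in APOE4 and 10.64 ± 0.112 log2 in APOE3 (SD, n = 5 each), and its 3 tested probe sets gave 0.077, 0.10 and 0.14 log2, with a smallest adjusted p of 0.861 in limma. Asah1, the acid ceramidase that degrades ceramide, was at 0.027 log2 (SE 0.124), and Ppt1, the thioesterase that removes palmitate from proteins, at -0.069 log2 (SE 0.115).

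**Figure D2:**
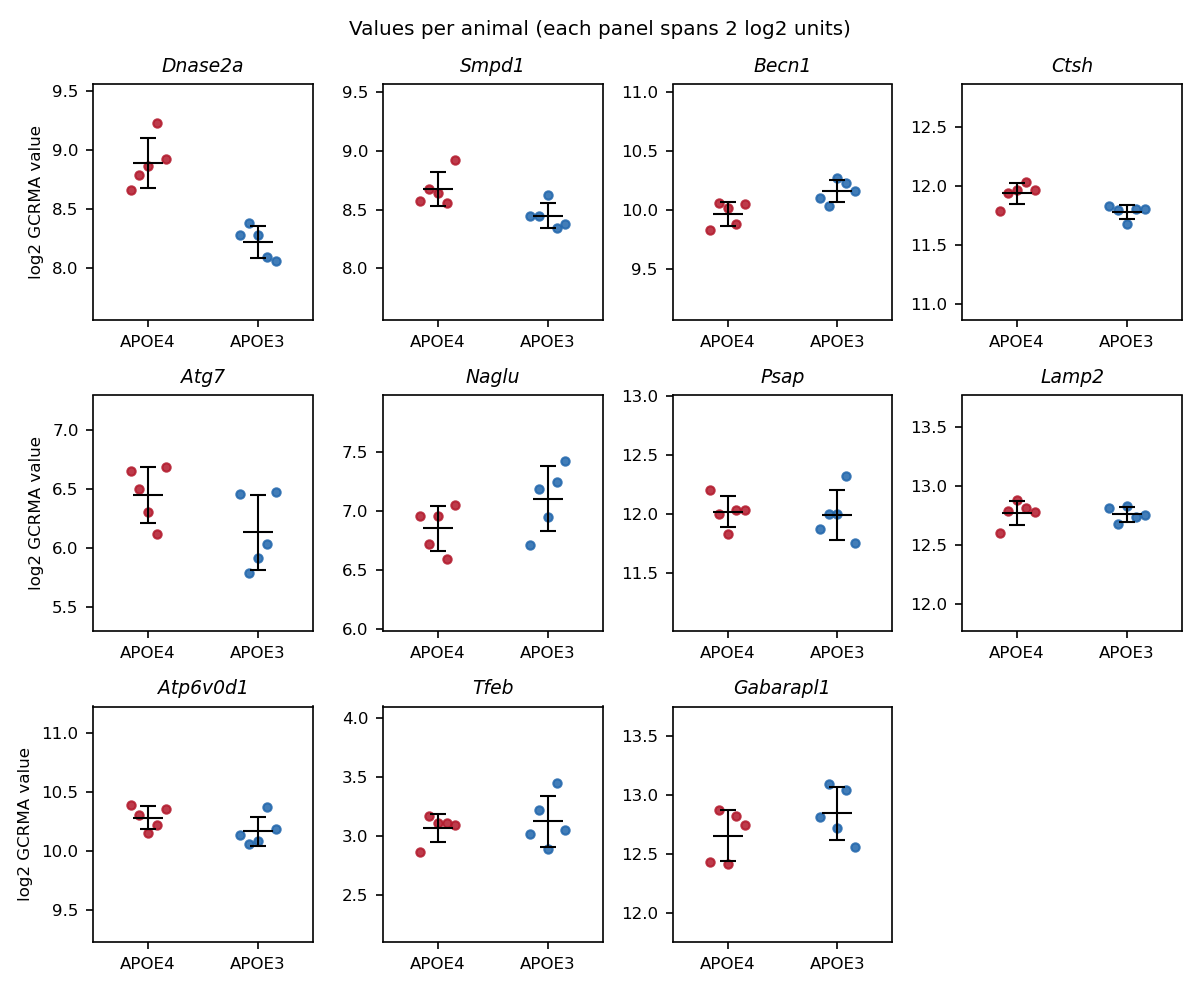
Log2 GCRMA values of each animal for the 6 members with the smallest unadjusted p and 1 member of each remaining role (points), with mean and SD (bars), 5 APOE4 and 5 APOE3 livers. Dnase2a is the panel without overlap, with APOE4 at 8.66 to 9.23 and APOE3 at 8.06 to 8.38 log2.

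None of the 8 lysosomal proteases had an unadjusted p under 0.05. Over them the differences ran from -0.049 (Ctsa) to 0.16 log2 (Ctsh), 4 higher and 4 lower, and 2 higher and 6 lower with centred arrays. Ctsh, the cathepsin with aminopeptidase activity, had the smallest unadjusted p of them (0.0783). Its values were 11.79, 11.94, 11.97, 12.03 and 11.97 log2 in APOE4 livers, against 11.84, 11.79, 11.68, 11.80 and 11.80 log2 in APOE3 livers. The genotypes overlapped, since the lowest APOE4 liver, replicate 1, lay at 11.79 log2, within the APOE3 range, while the 4 others lay above every APOE3 liver. A second Ctsh probe set gave -0.026 log2 (SE 0.104).

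The 3 endopeptidases had small differences. Ctsb, a cysteine protease, averaged 12.07 ± 0.152 log2 in APOE4 and 12.05 ± 0.188 log2 in APOE3 (SD, n = 5 each). Ctsl, another cysteine protease, averaged 12.50 ± 0.124 log2 in APOE4 and 12.51 ± 0.113 log2 in APOE3 (SD, n = 5 each). Ctsd, the chief aspartic protease of lysosomes, averaged 10.13 ± 0.115 log2 in APOE4 and 10.14 ± 0.156 log2 in APOE3 (SD, n = 5 each). Their differences were 0.015, -0.0092 and -0.016 log2, with SE of 0.115, 0.0947 and 0.102. The carboxypeptidase gene Ctsz stood at 0.011 log2 (SE 0.0847). Ctsa, a carboxypeptidase that also shields beta-galactosidase and neuraminidase, stood at -0.049 log2 (SE 0.11). Ctsc, the dipeptidyl peptidase that activates granule proteases of leukocytes, was at 0.14 log2 (SE 0.11), with its second probe set at -0.13 log2 (SE 0.195). Tpp1, the tripeptidyl peptidase, was at -0.046 log2 (SE 0.128).

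Of the 6 measured glycosidases, 5 were lower in APOE4 and 1 higher, with a median of -0.14 log2, the same split under both rescalings of the arrays, and 0 had an unadjusted p under 0.05 in limma. Naglu, which removes N-acetylglucosamine from heparan sulfate, had the largest difference of them. Its values were 6.95, 6.72, 6.95, 6.59 and 7.04 log2 in APOE4 livers, against 6.71, 7.18, 6.95, 7.24 and 7.42 log2 in APOE3 livers. All 5 APOE4 livers lay below the APOE3 mean, but APOE3 replicates 1 and 3, at 6.71 and 6.95 log2, lay inside the APOE4 range. The difference was -0.25 log2 (SE 0.145, adjusted p = 0.689 in limma).

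Hexa, the alpha subunit of the hexosaminidase that degrades GM2 ganglioside, averaged 9.93 ± 0.318 log2 in APOE4 and 10.15 ± 0.248 log2 in APOE3 (SD, n = 5 each). Man2b1, the lysosomal alpha-mannosidase, was at -0.18 log2 (SE 0.11). Neu1, the neuraminidase that removes sialic acid, was at -0.10 log2 (SE 0.133) and Glb1, the acid beta-galactosidase, at -0.014 log2 (SE 0.112). Manba, the beta-mannosidase and the one higher in APOE4, was at 0.11 log2 (SE 0.128), and at 0.013 log2 without APOE3 replicate 5. The 2 sphingolipid activators, small proteins that present lipids to these enzymes, did not pass either. Psap, the precursor of the saposins, read 12.20, 12.00, 11.82, 12.03 and 12.03 log2 in APOE4 livers, against 11.87, 11.99, 12.00, 12.32 and 11.75 log2 in APOE3 livers. Its genotypes overlapped, and APOE3 replicate 4 was the highest of the 10 animals. The difference was 0.031 log2 (SE 0.118). Gm2a, the activator of GM2 breakdown, was at -0.11 log2 (SE 0.108) by its main probe set and at -0.25 log2 (SE 0.0955) by a second, which had an unadjusted p of 0.0231 and an adjusted p of 0.582 in limma.

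Of the 4 genes of the lysosomal membrane, 3 were higher in APOE4 and 1 lower, and 1 higher and 3 lower with centred arrays. Lamp2, a membrane glycoprotein that also serves chaperone-mediated autophagy, read 12.60, 12.79, 12.88, 12.81 and 12.78 log2 in APOE4 livers, against 12.81, 12.67, 12.83, 12.73 and 12.75 log2 in APOE3 livers. The APOE3 range lay inside the APOE4 range. The difference was 0.013 log2 (SE 0.0835), and its 4 probe sets ran from -0.076 to 0.013 log2. Lamp1 averaged 11.85 ± 0.0531 log2 in APOE4 and 11.88 ± 0.0974 log2 in APOE3 (SD, n = 5 each). Scarb2, the membrane protein that carries glucocerebrosidase to lysosomes, was at 0.11 log2 (SE 0.115), and Mcoln1, the calcium release channel of lysosomes, at 0.023 log2 (SE 0.154).

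The proton pump that acidifies lysosomes was read on a membrane-sector and a cytosolic-sector subunit. Atp6v0d1, of the membrane sector, read 10.39, 10.30, 10.15, 10.21 and 10.35 log2 in APOE4 livers, against 10.13, 10.06, 10.08, 10.37 and 10.18 log2 in APOE3 livers. The ranges overlapped from 10.15 to 10.37 log2. The difference was 0.12 log2 (SE 0.0925), and Atp6v1h, of the cytosolic sector, was at -0.014 log2 (SE 0.112). Tfeb, the regulator itself, read 2.86, 3.16, 3.11, 3.11 and 3.09 log2 in APOE4 livers, against 3.02, 3.22, 2.89, 3.44 and 3.05 log2 in APOE3 livers. All 10 values were under 4, near background, so no difference in its transcript could be measured on these arrays.

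Of the 4 core genes that build autophagosomes, 2 were higher in APOE4 and 2 lower. Becn1, a subunit of the lipid kinase complex that starts the membrane, had the smallest p of them. Its values were 9.83, 10.06, 10.02, 9.88 and 10.05 log2 in APOE4 livers, against 10.11, 10.04, 10.28, 10.23 and 10.16 log2 in APOE3 livers. The ranges met between 10.04 and 10.06 log2, and all 5 APOE4 livers lay below the APOE3 mean. The difference was -0.19 log2 (SE 0.0881, unadjusted p = 0.0508, adjusted p = 0.624 in limma). Its 2 other tested probe sets gave 0.086 (SE 0.124) and 0.026 log2 (SE 0.13), of opposite sign. The last of these averaged 4.22 log2 over all arrays, close to the filter.

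Atg7, the enzyme that activates the ubiquitin-like proteins of autophagy, read 6.65, 6.49, 6.30, 6.12 and 6.68 log2 in APOE4 livers, against 6.46, 5.78, 5.91, 6.03 and 6.47 log2 in APOE3 livers. The genotypes overlapped, with APOE3 replicates 1 and 5 inside the APOE4 range and the 3 others below it. The difference was 0.32 log2 (SE 0.166, adjusted p = 0.661 in limma). Atg5, part of the conjugate that lipidates LC3, was at -0.10 log2 (SE 0.109), with its other probe sets at 0.0064 and 0.089 log2. Ulk1, the kinase that starts autophagy, averaged 7.24 ± 0.392 log2 in APOE4 and 7.05 ± 0.342 log2 in APOE3 (SD, n = 5 each), among the widest spreads of the members.

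Of the proteins that coat the autophagosome and its cargo, Gabarapl1, a member of the Atg8 family, read 12.43, 12.87, 12.41, 12.82 and 12.75 log2 in APOE4 livers, against 12.82, 13.09, 12.72, 13.05 and 12.56 log2 in APOE3 livers. The genotypes overlapped from 12.56 to 12.87 log2. The difference was -0.19 log2 (SE 0.138). Map1lc3b, the LC3 gene of the same family, was at -0.057 log2 (SE 0.107) by its main probe set and at 0.0029 and 0.18 log2 by the others. Sqstm1, the p62 cargo receptor, averaged 11.00 ± 0.129 log2 in APOE4 and 10.91 ± 0.17 log2 in APOE3 (SD, n = 5 each).

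Where a member had several tested probe sets they could be set against each other. Among the 17 such genes, 9 had probe sets of 1 sign and 8 of both. The gap between the highest and lowest difference within a gene had a median of 0.107 log2 and reached 0.278 in Becn1. The difference of 0.68 log2 in Dnase2a, the largest of the members, cannot be checked by these gaps, which come from other genes. Dnase2a had 1 tested probe set, which could not be set against another. Over all 60 tested probe sets of the members, 0 passed in limma and 3 had an unadjusted p under 0.05, those of Dnase2a, Smpd1 and Gm2a, against 8.00% of all 14732 tested probe sets.

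**Figure D3:**
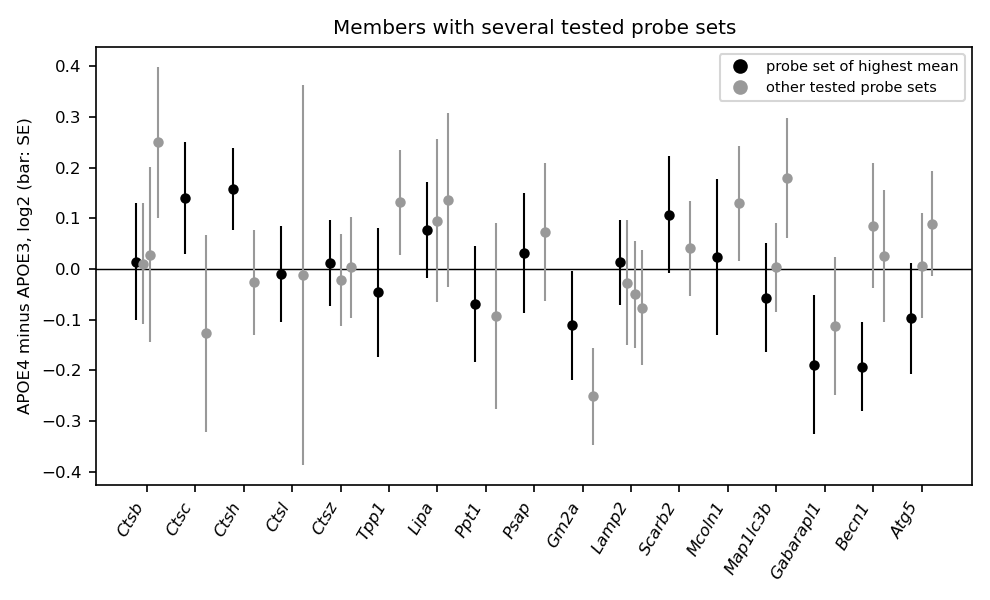
Difference in log2 expression (APOE4 minus APOE3) for each tested probe set of the 17 members with more than 1, with the SE as bars. Probe sets of a gene differ by 0.107 log2 in the median gene and by 0.278 in Becn1.

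The mean over the members spanned less between animals than the mean over every measured marker list, that of macrophages, cells rich in lysosomes, included. Over the 10 animals the stellate cell marker mean ran from 7.11 to 8.73 log2 and the hepatocyte marker mean from 12.45 to 13.13 log2. The lists differ in number of genes and in signal. The mean over the 34 members lay between 9.71 and 9.83 log2 in APOE4 livers and between 9.72 and 9.85 log2 in APOE3 livers, a span of 0.14 log2 over all 10 animals. Over the 19 measured Kupffer cell and macrophage markers of 20 listed, the mean lay between 7.98 and 8.86 log2 in APOE4 livers and between 8.12 and 9.47 log2 in APOE3 livers, a span of 1.49. Itgam was near background on all arrays, while Cd5l, Vsig4 and C1qb, made by Kupffer cells, had the highest means. The animal with the highest marker mean was APOE3 replicate 4, which held the highest value of all animals in 14 of the 19 markers and in 5 of the 34 members. Markers did not all run one way in it. Cd163, a scavenger receptor of macrophages, read 8.73, 8.64, 9.22, 9.36 and 9.01 log2 in APOE4 livers, against 8.31, 8.22, 8.68, 6.37 and 9.02 log2 in APOE3 livers, so APOE3 replicate 4 was the lowest of all. Marco, another scavenger receptor, read 3.57, 3.18, 2.78, 4.73 and 2.66 log2 in APOE4 livers, against 2.80, 6.62, 3.55, 9.99 and 3.44 log2 in APOE3 livers, and there the same animal was the highest. Both were chosen after their values were seen, and without them the mean over the 17 other markers spanned 1.39 log2 with APOE3 replicate 4 still highest. Without Marco alone the span was 1.17 log2. Vsig4, the complement receptor of Kupffer cells, read 10.69, 10.06, 10.13, 10.66 and 9.79 log2 in APOE4 livers, against 10.42, 10.39, 10.52, 11.02 and 10.13 log2 in APOE3 livers. By genotype, 3 of the 19 markers were higher and 16 lower in APOE4, with a median difference of -0.20 log2, and 0 had an unadjusted p under 0.05 in limma. This split and median include APOE3 replicate 4, the highest animal in 14 of the 19 markers. They were not recounted without it, so they cannot be read apart from that animal. Of the glycosidases 5 of 6 were lower in APOE4. Of the lipid and DNA hydrolases 4 of 5 were higher, and 3 of 5 under both rescalings of the arrays. The part of macrophages in these values was not tested.

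**Figure D4:**
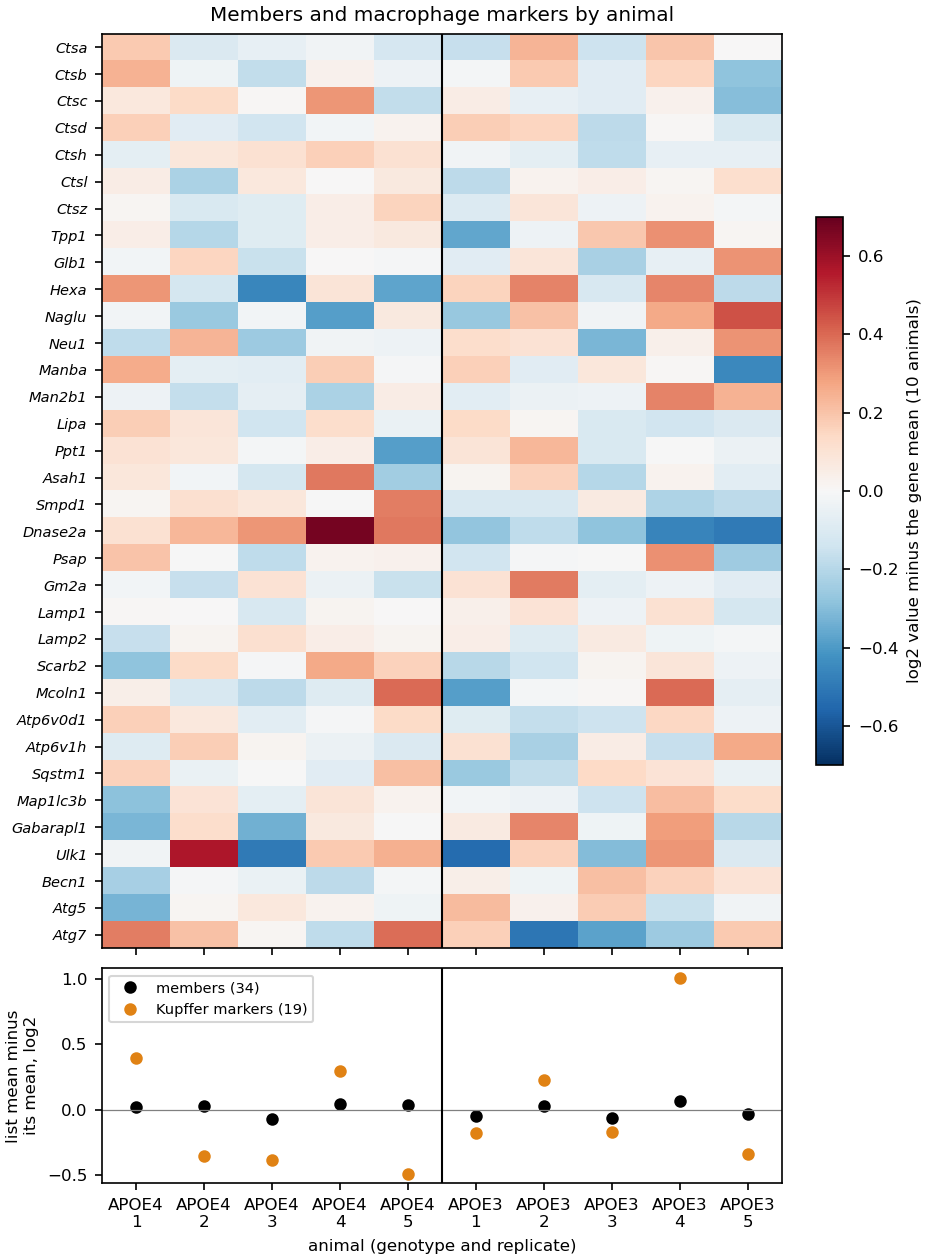
Upper panel: log2 value of each of the 34 members minus its mean over the 10 animals (colour), APOE4 animals left. Lower panel: mean over the members (black) and over 19 Kupffer cell and macrophage markers (orange), each minus its own mean, in log2. The members span 0.14 log2 and the markers 1.49, with APOE3 replicate 4 highest in both.

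By animal, APOE4 replicate 3 held the lowest value of its genotype in 13 of the 34 members and the highest in 4. APOE3 replicate 4 held the highest value of its genotype in 9 members and the lowest in 3. Means of deviations from the genotype ran from -0.082 log2 in APOE4 replicate 3 to 0.034 in APOE4 replicate 4, and from -0.054 in APOE3 replicate 3 to 0.078 in APOE3 replicate 4. The liver itself was recognised by its hepatocyte transcripts: Alb averaged 14.48 log2 in APOE4 and 14.46 log2 in APOE3, and 14 of 15 hepatocyte markers on the array were measured (Ass1 was not). The 5 cholangiocyte markers on the array, Krt19, Krt7, Epcam, Sox9 and Cftr, were near background, as were 6 of 8 lymphocyte markers. Endothelial marker means ran from 7.47 to 7.89 log2 in APOE4 and from 7.51 to 7.77 log2 in APOE3, and stellate cell marker means from 7.11 to 8.73 log2 in APOE4 and from 7.49 to 8.34 log2 in APOE3. Of the markers of lipid-laden macrophages, Gpnmb, Trem2, Itgax and Mmp12 were near background, and 3 of 7 were measured: Cd9 at 0.55, Lpl at -0.45 and Atp6v0d2 at -0.34 log2, with a smallest adjusted p of 0.580 in limma.

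The rest of the pathway was described with 5 further lists of 155 genes. The array named 142 of them, 128 were tested and 0 passed in limma. Of these, 7 (5.47%) had an unadjusted p under 0.05, 3 higher and 4 lower in APOE4, against 7.16% of all tested genes. In 2 the genotypes did not overlap (1.56%), against 1.75% of all tested genes. Their median difference was 0.0044 log2, with 68 higher (53.1%, against 59.6% of all tested genes) and 60 lower. With centred arrays 43 were higher (33.6%, against 45.4% of all tested genes) and 85 lower.

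The other lysosomal hydrolases, 24 tested, had 9 higher and 15 lower with a median of -0.047 log2. Scpep1, a serine carboxypeptidase, was at -0.36 log2 (SE 0.13), and Pla2g15, the lysosomal phospholipase, at -0.32 log2 (SE 0.135). Gusb, the beta-glucuronidase, was at -0.14 log2 (SE 0.0914). The unadjusted p of the first pair was under 0.05, and the adjusted p of all 3 at least 0.580 in limma.

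Of 22 further membrane and transport genes, 13 were higher and 9 lower (median 0.032 log2). Slc38a9, the lysosomal arginine sensor that signals to mTOR, read 6.37, 6.25, 6.56, 6.30 and 6.08 log2 in APOE4 livers, against 6.79, 6.58, 6.97, 6.61 and 6.72 log2 in APOE3 livers. The groups did not overlap, with every APOE4 liver below every APOE3 liver. The difference was -0.42 log2 (SE 0.114, adjusted p = 0.447 in limma). Laptm4a, a late endosomal membrane protein gene, read 10.91, 11.04, 10.73, 11.01 and 10.91 log2 in APOE4 livers, against 10.77, 10.26, 10.47, 10.45 and 10.58 log2 in APOE3 livers. Only APOE4 replicate 3 and APOE3 replicate 1 crossed. The difference was 0.42 log2 (SE 0.109, adjusted p = 0.439 in limma). Gnptab, of the enzyme that builds the mannose-phosphate tag of lysosomal enzymes, was at -0.20 log2 (SE 0.11).

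Of 13 further proton pump subunits, 6 were higher and 7 lower (median -0.00040 log2). Atp6v0a2, a large membrane-sector subunit, read 6.99 to 7.18 log2 in APOE4 livers, against 6.68 to 6.97 log2 in APOE3 livers. Every APOE4 liver lay above every APOE3 liver. The difference was 0.30 log2 (SE 0.0894, adjusted p = 0.505 in limma). Atp6v1e1 and Atp6ap1 were at -0.15 and 0.14 log2.

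Of 46 further autophagy genes, 28 were higher and 18 lower (median 0.025 log2), and 0 had an unadjusted p under 0.05. The share higher, 60.9%, was near the 59.6% of all tested genes. Vps16, of the tethering complex for fusion with lysosomes, was at 0.33 log2, the adaptor gene Calcoco1 at -0.36 log2 and Gabarapl2, of the Atg8 family, at 0.31 log2. Among 23 regulators 12 were higher and 11 lower (median 0.021 log2). Lamtor1, which anchors the mTOR-activating complex to lysosomes, was at 0.20 log2 (SE 0.086), and Flcn, folliculin, at -0.38 log2 (SE 0.168), with an adjusted p of 0.600 and 0.610 in limma. Prkaa1, a catalytic subunit of the AMP-activated kinase, was at -0.28 log2.

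**Figure D5:**
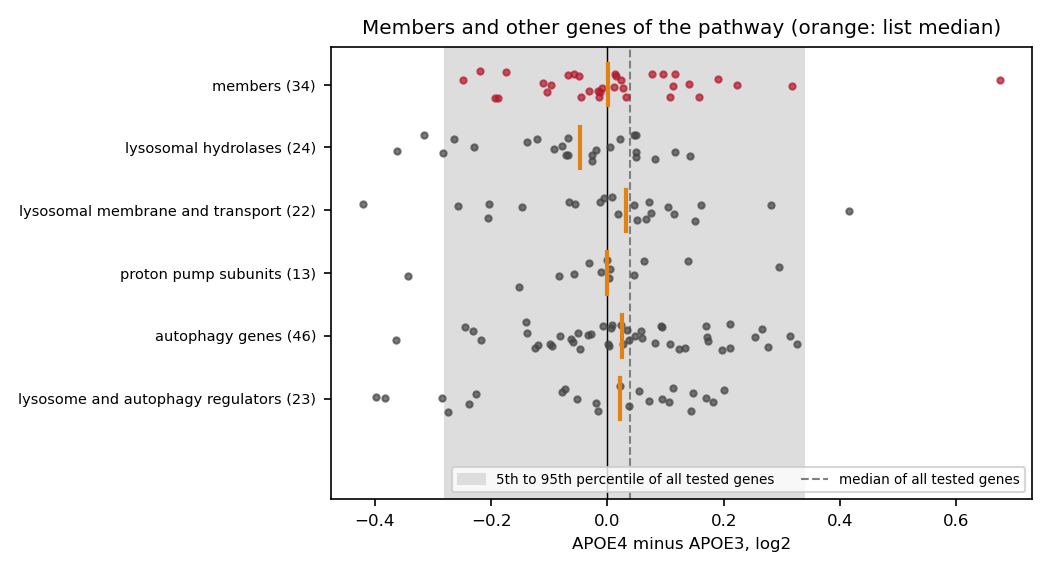
Difference in log2 expression (APOE4 minus APOE3) of each tested gene (points) of the members and of 5 lists of other genes of the pathway, with list medians in orange; the grey band spans the 5th to 95th percentile of all tested genes, from -0.28 to 0.34 log2. Dnase2a is the point furthest right, at 0.68 log2.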

How the data were processed

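Total RNA from 10 livers was labelled with biotin from 2 µg per sample, per the labels' protocols, and each liver was read on a one-colour array with 45101 probe sets. The authors' deposited values are GCRMA estimates on the log2 scale; per the submitters' processing notes the tools were R 2.7.1 and GCRMA 2.12.1. Scanner files were not used here, and any probe filter is not given in the sources used here. Groups and replicate numbers come from the sample titles, with 0 columns left over.

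The 64 control probe sets were left out. Probe sets with a mean of at least 4 log2 over all arrays (14732) were fitted with limma 3.58.1 in R 4.3.3 (two-sided, plain eBayes, genotype as the single term), with Benjamini-Hochberg adjustment over all of them. The intervals are limma's and are not adjusted for the number of genes. Medians of the arrays ran from 2.61 to 2.67 log2. Precision is limited by having 5 arrays a group, with a median SE of 0.142 log2 per difference. The fit was tested on simulated data.

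The platform annotation named 34945 probe sets by 1 symbol and 932 by several; 9160 had no symbol. Genes were named only from the 34945. Promoter windows and gene order are from RefSeq (GRCm38.p6). No batch is given in the labels. The members, lists and tests were chosen with earlier results of these data known. All members are named. The text also names, from each other pathway list, genes that pass or else the 3 of smallest p, from the marker lists genes of high mean, and the nearest tested genes beside the member of smallest p. Alternatives were no filter, a filter at 6, another variance model, array weights, renewed quantile normalization, centring, 1 probe set per gene, a floor at 4, a block on replicate number, and fits without each animal in turn. Python 3.11.15 with matplotlib 3.10.9 drew the figures.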

Additional observations from a re-analysis of the deposited data

Results flagged for a closer look

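Within each genotype, the values of the 36 members were examined for an animal far from the others of its group, as the gap to its nearest neighbour over the group's whole range. Of 72 such groups of 5, 6 had an animal past Dixon's 95% critical value, where chance gives about 3.6 (about 1 in 20 groups).

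Ctsh read 11.68 log2 in APOE3 replicate 3, below the other animals of that genotype at 11.79 to 11.84 log2 (ratio 0.73). Ctsl read 12.28 log2 in APOE4 replicate 2, below the other animals of that genotype at 12.51 to 12.58 log2 (ratio 0.769). Ppt1 read 6.70 log2 in APOE4 replicate 5, below the other animals of that genotype at 7.07 to 7.18 log2 (ratio 0.76). Lamp1 read 11.76 log2 in APOE4 replicate 3, below the other animals of that genotype at 11.87 to 11.89 log2 (ratio 0.857). Tfeb read 2.86 log2 in APOE4 replicate 1, below the other animals of that genotype at 3.09 to 3.16 log2 (ratio 0.745). Atg5 read 9.42 log2 in APOE4 replicate 1, below the other animals of that genotype at 9.72 to 9.82 log2 (ratio 0.736).

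All 6 were low values, in 5 different animals, and the Tfeb value lies near background. Leaving out any of these animals brought none of the 34 tested members past the threshold.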

How the results depend on the processing

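None of the members, of the other pathway genes or of the neighbours of Dnase2a passed in any of the 19 alternative fits. Dnase2a stayed between 0.59 and 0.73 log2, with adjusted p from 0.0942 (array weights) to 0.381 (replicate block). The number of probe sets called over the whole array was 12, and 5 with a filter at a mean of 6 and 7 with 1 probe set per gene, which both test fewer. It was 15 with no filter and ran from 8 to 14 in the fits without 1 animal. The median over the members became -0.040 log2 with renewed quantile normalization and -0.056 with centring, settings that also lowered the median of all tested genes, and ran from -0.0083 to 0.019 without 1 animal. Other causes of these shifts were not tested. The signs of 20 members held in every fit that tested them and those of the other 14 did not. Under array weights the reversed differences were Ctsb -0.0034, Ctsz -0.0040, Psap -0.00086, Mcoln1 -0.028 log2. Under renewed quantile normalization they were Ctsb -0.013, Ctsz -0.029, Asah1 -0.025, Psap -0.0037, Lamp2 -0.019, Mcoln1 -0.035 log2. With centring they were Ctsb -0.042, Ctsz -0.046, Asah1 -0.030, Psap -0.026, Lamp2 -0.043, Mcoln1 -0.033 log2. Without 1 animal the differences that changed sign ran over Ctsa -0.10 to 0.0032, Ctsb -0.054 to 0.062, Ctsd -0.064 to 0.025, Ctsl -0.056 to 0.045, Ctsz -0.026 to 0.039, Tpp1 -0.14 to 0.027, Glb1 -0.072 to 0.063, Ppt1 -0.10 to 0.019, Asah1 -0.063 to 0.091, Psap -0.028 to 0.11, Lamp2 -0.013 to 0.056, Mcoln1 -0.074 to 0.13, Atp6v1h -0.072 to 0.052 and Map1lc3b -0.10 to 0.0071 log2. In 12 more members leaving out 1 animal moved the difference by over 1.5 times with its sign kept: Ctsc 0.080 to 0.20, Hexa -0.33 to -0.13, Neu1 -0.20 to -0.038, Manba 0.013 to 0.17, Man2b1 -0.22 to -0.11, Lipa 0.044 to 0.12, Gm2a -0.15 to -0.034, Lamp1 -0.067 to -0.0082, Scarb2 0.054 to 0.19, Sqstm1 0.043 to 0.14, Ulk1 0.072 to 0.34 and Atg5 -0.15 to -0.028 log2. The replicate numbers are shared by the genotypes, and deviations of same-numbered animals correlated at 0.0019, 0.19, 0.41, -0.079 and 0.29. Animals of different numbers were not compared, so whether the numbers mark a pairing or a batch was not tested. With the replicate block 11 probe sets and 0 members were called. Transcripts under 4 log2, such as Gla and Tfeb, could not be compared at this signal.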
